A study of Drosophila melanogaster with 3 samples.

Results

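The genes described here are 9 genes for transcription factors and cofactors that are known for setting the identity of the somatic cells of the gonad: eya, so, cas, zfh1, chinmo, Lim1, bab1, bab2 and bowl. They were chosen by name from a list, and all 9 were found in the gene annotation, among 13945 protein-coding genes on the 6 chromosome arms. Their sites are every summit in the list of reproducible Traffic jam binding sites from 20 kb before to 20 kb after each gene, which gave 53 of 10688 summits, in 42 of 8370 separate regions. No summit fell in the windows of 2 genes. The binding data are chromatin immunoprecipitation with sequencing (ChIP-seq) from whole adult females of a transgenic Drosophila melanogaster line. The flies made a Traffic jam (tj) protein with eGFP at its C-terminal end, and an antibody against GFP recovered the fusion from chromatin sheared to between 200 and 800 bp. All 3 biological replicates came from this 1 line and make up a single group, with no other genotype or treatment to compare, and the labels give the age of the flies as unknown. Read depth is unknown, since the files used here list peaks and their signal values, not reads.

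Traffic jam is a large Maf factor of the basic leucine zipper class that is made in the somatic cells of the ovary and testis, among other tissues. Factors of this family bind DNA as dimers at palindromic Maf recognition elements, whose core on either side is TGCTGAC. In the ovary, somatic cells form the terminal filaments, escort cells and follicle cells around the germline, and several of the genes here are known for dividing these cells into types. The protein Eya is a transcription cofactor with phosphatase activity, and it acts with the homeodomain protein So, while Cas is a zinc finger factor. In early follicle cells, Eya and Cas mark the main body, polar and stalk cell fates. The genes zfh1 and chinmo encode a zinc finger homeodomain factor and a BTB zinc finger factor that are known from cyst stem cells of the testis. Bab1 and Bab2 are BTB factors of terminal filament cells, Bowl is a zinc finger factor of the odd-skipped family, and Lim1 is a LIM homeodomain factor.

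The genes differed widely in how much binding lay around them. The windows of eya and zfh1 held 11 summits each, that of bowl 8, so 7, bab1 5, cas 4, chinmo 3, and those of Lim1 and bab2 2 each. Over all protein-coding genes, the same window held a median of 5 summits, with quartiles of 2 and 8. When only summits matched among the strongest of the replicates were kept, the 9 windows held 32 summits with all replicates and 35 without replicate 3. The windows differ in length because the genes do. Per 10 kb of window, eya had 1.85 summits, zfh1 1.74, bowl 1.53, so 1.26 and cas 0.91, against a median of 0.98 over all coding genes. The long genes were sparse: bab1 had 0.48 per 10 kb, chinmo 0.32, bab2 0.26 and Lim1 0.22.

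Signal is given relative to each replicate's median over those reproducible summits that were matched, within 200 bp, in each of the 3 replicate lists, so that 1 is a typical site of the series. Of the 53 summits, 49 had a value in all 3 replicates. Their median relative signal was 0.87 in replicate 1, 1.11 in replicate 2 and 0.90 in replicate 3, near the typical site. Of the 53, 6 were among the strongest 10% of the list and none among the strongest 1%. Those 6 lay in the windows of eya, zfh1 and bowl, and 2 of them lay inside a gene of the list. Where summits lie close together, 1 replicate peak can give its value to both, and 16 of the 53 summits shared a value in this way with a neighbour.

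**Figure D1:**
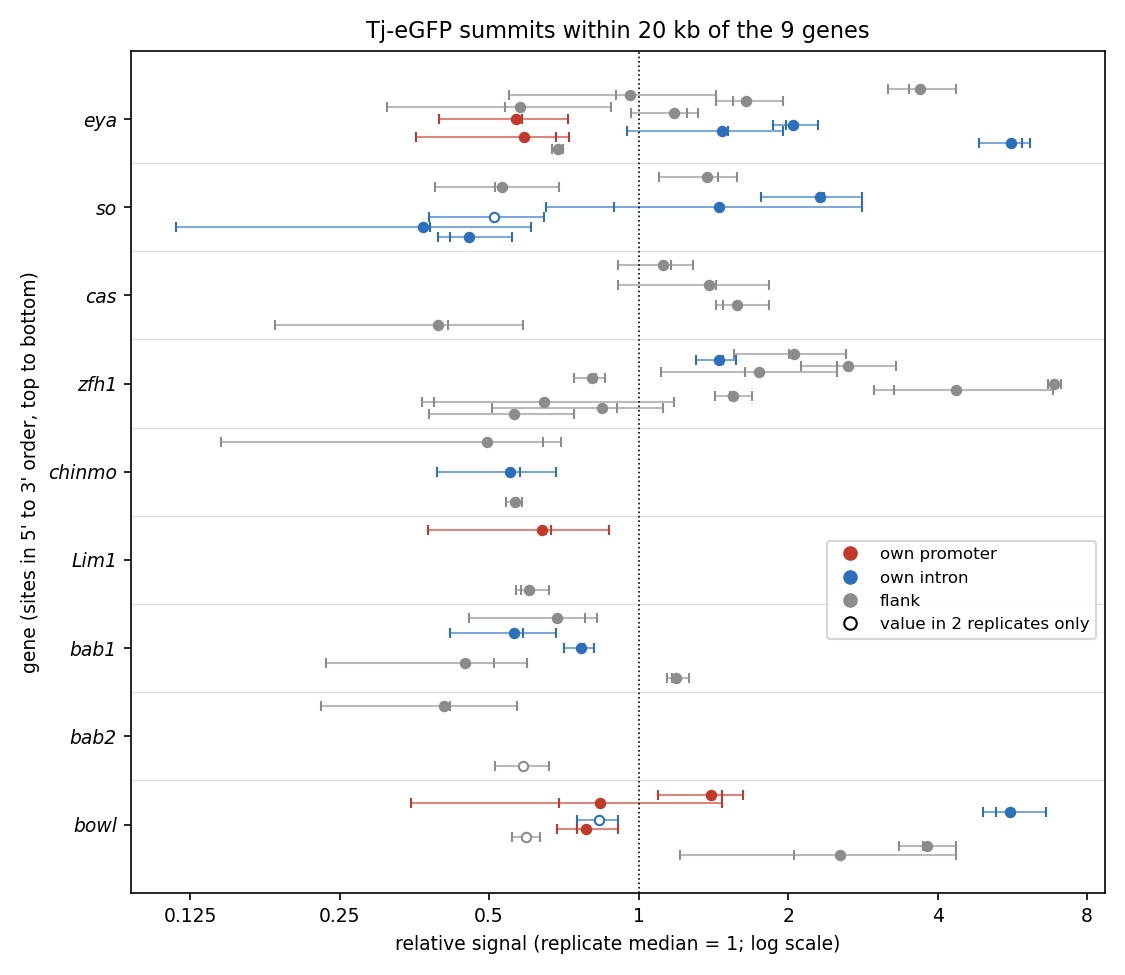
Relative signal of each of the 53 summits (horizontal axis, log scale, 1 is the replicate's median) by gene, with sites in 5' to 3' order. Ticks are the 3 replicates, circles their mean, and lines their range. Open circles are 4 sites with a value in only 2 replicates. The intronic sites of eya and bowl and the flanking sites in wts beside zfh1 lie farthest to the right.

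The strongest site within a member gene lay in an intron of eya. It had a relative signal of 5.92 in replicate 1, 4.85 in replicate 2 and 6.13 in replicate 3 (5.63 ± 0.69, SD, n = 3), and ranked 284 among the 10688 summits. The region spans chr2L:6532865-6533460 in dm6, and its summit lies between the internal start at 6536111 and the start at 6530509, upstream of the latter by 2668 bp. The site of the same kind in bowl was as strong, with 4.94, 5.24 and 6.60 in the replicates (5.59 ± 0.89, SD, n = 3) and rank 278. Its region spans chr2L:3776717-3777443, in an intron, and its summit lies 1816 bp upstream of an internal start of bowl. In each replicate both sites were more than 4 times the typical site, and their replicate ranges overlapped.

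The sequence at these summits is shown because they are the strongest within the 9 genes, together with the strongest of all 53, which lies in an intron of wts beside zfh1 and is described further below. Each is the 81 bases of the plus strand of the Release 6 genome centred on the summit, at chr2L:6533137-6533217 for eya, chr2L:3777082-3777162 for bowl and chr3R:30803734-30803814 for wts. Capitals mark matches to any of 4 short motifs searched on both strands, the Maf core TGCTGAC, the AP-1 site TGACTCA, the GATA site AGATAA and the GAGA repeat GAGAGAG.
eya intron: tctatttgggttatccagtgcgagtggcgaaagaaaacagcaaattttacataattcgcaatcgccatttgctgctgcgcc
bowl intron: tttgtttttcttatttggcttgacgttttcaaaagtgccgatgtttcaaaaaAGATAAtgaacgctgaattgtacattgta
wts intron beside zfh1: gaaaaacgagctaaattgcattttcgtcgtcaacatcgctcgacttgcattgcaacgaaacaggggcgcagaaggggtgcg
The only match in these 81-base windows was the GATA site at bowl. None of the 3 strongest sites held TGCTGAC within 100 bp of its summit.

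Promoters of the 9 genes were mostly weak sites where they were bound at all. A summit within 500 bp of one of the gene's own starts was present at 3 of 9 genes (33.3%), eya, Lim1 and bowl. This is near the share of all protein-coding genes, of which 31.9% had such a summit. Only 1 gene had one when summits were kept that matched among the strongest of all replicates or, without replicate 3, of the other replicates. The gene eya had 1 at its 5' start, with a relative signal of 0.40, 0.58 and 0.72 in replicates 1, 2 and 3, and 1 at the internal start at 6536111, with 0.36, 0.73 and 0.68. All values of both sites were under the typical site. The single promoter summit of Lim1 had 0.87, 0.38 and 0.67. The gene bowl had 3, of which the strongest lay 204 bp from its first start and had 1.62, 1.48 and 1.09 (1.40 ± 0.27, SD, n = 3). It was the only one of the 6 promoter summits that was above the typical site in all 3 replicates, and 4 of the 6 were below it in all 3. The second bowl summit there, 36 bp from a start, had 0.35, 1.48 and 0.69 and shared its value in replicate 2 with the first. The third, at the internal start, had 0.75, 0.91 and 0.69. Its values in replicates 1 and 2 were shared with an intronic summit of bowl. Of 12 intronic summits with 3 values, 5 were above the typical site in all 3 replicates and 5 below it. Of 31 such flanking summits, 13 were above it and 12 below it in all 3. The same share over all reproducible summits was not counted.

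Within eya and bowl, the strongest intronic site exceeded the strongest promoter site in every replicate, each site picked by its mean. In eya that promoter site was the one at the internal start at 6536111. The promoter site at the 5' start of eya was slightly higher than it in replicates 1 and 3. The ratio in eya was 16.6 in replicate 1, 6.68 in replicate 2 and 8.99 in replicate 3, and on the log2 scale the difference was 3.32 ± 0.67 (SD, n = 3; two-sided exact sign-flip permutation p = 0.25). In bowl the ratio was 3.04, 3.55 and 6.04, and the log2 difference was 2.01 ± 0.52 (SD, n = 3; exact sign-flip p = 0.25). With 3 replicates 0.25 is the smallest p this test can give, so neither can pass 0.05. Both differences were larger than their SD between replicates, but the sites were picked as the strongest of their class.

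The remaining 6 genes had no reproducible summit within 500 bp of a start, and the relaxed replicate lists, which include background, show how near each came. At so, a summit 585 bp before the start, just outside the promoter window, was in the reproducible list (relative signal 0.69, 0.51 and 0.39). The strongest relaxed summit of so within 500 bp had 0.69, 0.49 and 0.18. The replicate 1 values were equal, and 1 replicate peak can give both. At bab2 the nearest lay 1038 bp before the start, with 0.51 in replicate 1, 0.66 in replicate 3 and none in replicate 2, while the strongest relaxed summit within 500 bp had 0.35, 0.25 and 0.37. At zfh1, the strongest relaxed summit within 500 bp of a start had 0.23, 0.28 and 0.24 in the 3 replicates, and at chinmo 0.23, 0.13 and 0.15. At bab1 there was 0.15 and 0.13 in replicates 1 and 2 and none in replicate 3. The promoter of cas was the emptiest, with 0.14 in replicate 1 and no listed summit in the others. In all, 7 of 9 genes had a relaxed summit at a promoter in every replicate, against 44.3% of all protein-coding genes, and those of genes outside the reproducible list were under 0.7 in each replicate. In these whole-animal samples, binding in few cells and weak binding per cell cannot be told apart.

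**Figure D2:**
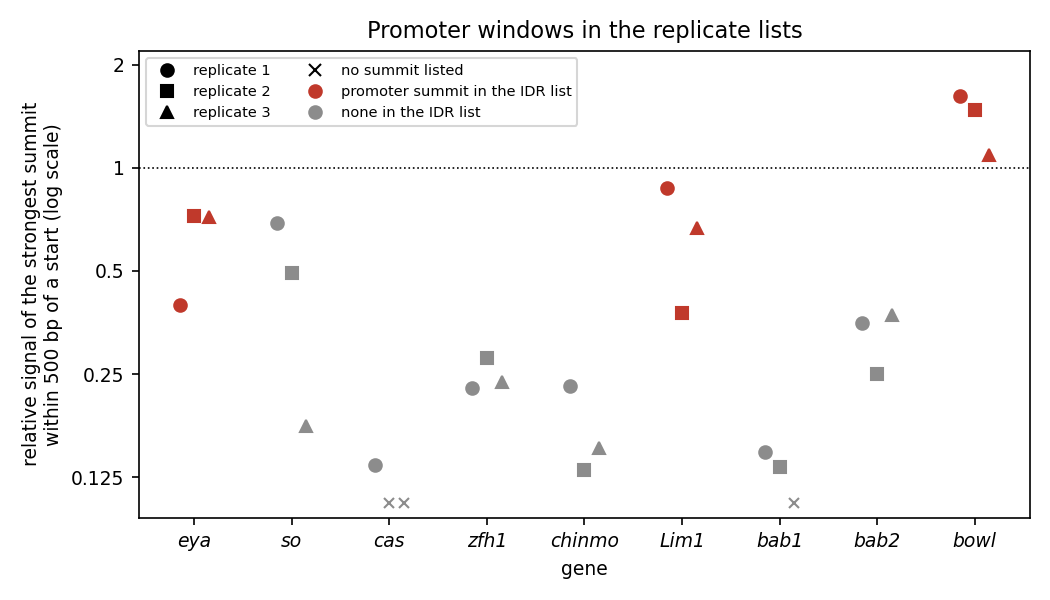
Relative signal (log scale) of the strongest summit within 500 bp of any start of each gene, in the replicate lists that include background. Symbols are the 3 replicates, crosses mark replicates with no listed summit, and red marks genes whose promoter summit is in the reproducible list. Only bowl is above 1 in all 3 replicates.

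Intronic sites were found in 6 genes, and no summit fell in an exon of a member outside the promoter windows. Of the 9 genes, 6 (66.7%) held a summit between start and end if 1 within the promoter window is counted, against 21.5% of all protein-coding genes. All 9 genes are longer than the median coding gene of 2166 bp, up to 64721 bp at bab1, and whether length gives this difference was not tested. The 14 intronic summits were 5 in so, 3 in eya, 2 in bab1, 2 in bowl, 1 in zfh1 and 1 in chinmo. In eya a second intronic region (chr2L:6537696-6538869) held 2 summits, upstream of the internal start at 6536111. The stronger had 1.87, 1.98 and 2.29 (2.05 ± 0.22, SD, n = 3) and the other 1.51, 0.95 and 1.96, and both were weaker in every replicate than the first eya site.

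The gene so had its sites late in the gene. The strongest (2.36, 1.76 and 2.82; 2.31 ± 0.53, SD, n = 3) lay 10045 bp from its only start. That summit was 802 bp from the start of CG11145, a gene nested in so, and 600 bp from that of the non-coding RNA gene lncRNA:CR44203. A second summit of that region had 0.65, 0.89 and 2.82, and its value in replicate 3 was shared with the first. This second summit lay in an exon of lncRNA:CR44203, 396 bp from the start of that gene. The other 3 intronic summits of so, between 12570 and 13175 bp from the start, were all under the typical site. They lay 576, 323 and 29 bp from the start of lncRNA:CR44204, those at 576 and 323 bp in an exon of that gene. Several intronic summits of so thus lay within 500 bp of the start of a non-coding RNA gene. The intronic summit of zfh1 had 1.48, 1.57 and 1.30 (1.45 ± 0.14, SD, n = 3) and lay 1520 bp upstream of its internal start, in an exon of an antisense RNA gene.

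The other genes had only weak sites inside. The strongest intronic site of bab1 had 0.71, 0.81 and 0.77, and that of chinmo 0.68, 0.39 and 0.58. Ordered by the strongest site in the gene or at its promoters, eya and bowl came first and their replicate values overlapped. Next came so and zfh1, each apart from the gene before and the gene after it in all 3 replicates. Last were bab1, Lim1 and chinmo, each overlapping the next. The genes cas and bab2 had no site in the gene or at a promoter. Across chinmo, Lim1, bab1 and bab2 together, 10 of 11 summits with 3 values had a mean under 1, and the other was a flanking site. These 4 genes were grouped for their low values, so this count follows in part from the choice. Of all 49 member summits with 3 values, 24 had a mean above 1.

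Several intronic sites lay upstream of an internal start. Of the 14 intronic summits, 7 lay within 3 kb of the nearest start of a member with several starts. Of these 7, 6 were upstream of that start by 668 to 2668 bp: 3 in eya (2 of them in 1 region), 2 in bowl and 1 in zfh1. The exception was the chinmo summit, 2016 bp downstream of an internal start. Over all protein-coding genes with several starts, 33.1% of 1669 such summits were upstream. That share counts any nearest start, also the first of a gene, upstream of which no intronic summit can lie. The 7 summits here were all nearest to an internal start, so the 2 shares are not alike. The pattern was noticed after the values were seen and has no test.

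**Figure D3:**
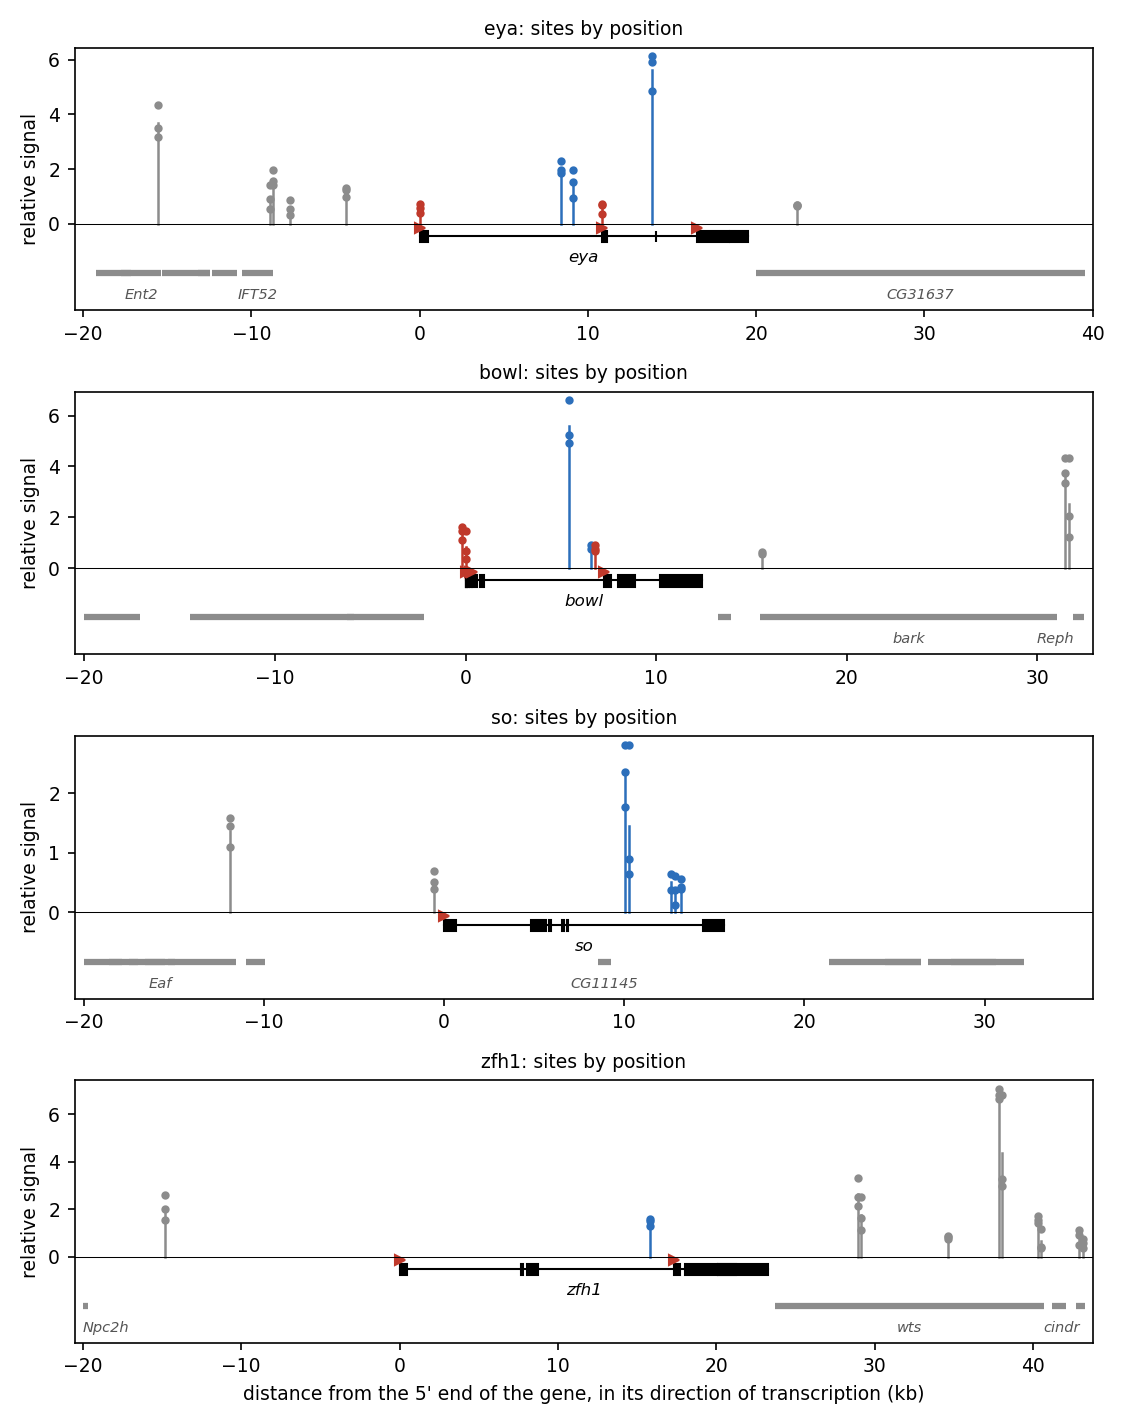
Sites at eya, bowl, so and zfh1 by distance from the 5' end of the gene (kb) against relative signal. Stems are means, points the 3 replicates, with promoter sites red, intronic sites blue and flanking sites grey. Black boxes are exons, red triangles starts, and grey bars other protein-coding genes. The tallest stems of eya and bowl are intronic, and that of zfh1 lies in wts.

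The flanks held 33 of the 53 summits, and most lay at other genes: 13 within 500 bp of the start of another gene, 12 inside another gene and 8 between genes. For 31 of the 53 summits the nearest protein-coding start belonged to a gene outside the list. The zfh1 window shows this best. Its strongest site, which is also the strongest of all 53, lay 14572 bp past the end of zfh1 in an intron of wts, which encodes the Warts kinase of the Hippo pathway (chr3R:30803278-30804534). It had 7.07, 6.81 and 6.66 in the 3 replicates (6.85 ± 0.21, SD, n = 3) and rank 120. A second summit of that region had 3.27, 6.81 and 2.97, sharing its replicate 2 value with the first. In all, 7 of the 11 summits around zfh1 lay inside wts, and another wts intron held a summit with 2.50, 2.12 and 3.29. On the other side, an intergenic site 14800 bp before zfh1 had 2.61, 1.55 and 2.01.

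Strong flanking sites of eya and bowl also lay at neighbours' starts. The promoter of Ent2, 15559 bp from the eya start, had 3.18, 3.50 and 4.36 (3.68 ± 0.61, SD, n = 3). The promoter of Reph, past bowl, had 3.73, 3.34 and 4.35 (3.81 ± 0.51, SD, n = 3). Around cas, which had no site of its own, the strongest summit lay in an intron of plx, 15243 bp from the cas start (1.83, 1.43 and 1.48). The strongest site in the bab1 window lay in an intron of trio (1.26, 1.14 and 1.17). Which gene a flanking site acts on, if any, was not measured.

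Own promoters had a lower median signal than introns and flanks of the 9 genes in each replicate. The size of the differences depended on which sites were counted. The promoter summits came only from eya, Lim1 and bowl, so the classes also differ in their genes. The median relative signal of the 6 promoter summits was 0.55, 0.81 and 0.69 in replicates 1, 2 and 3, that of 12 intronic summits 1.02, 0.92 and 1.60, and that of 31 flanking summits 1.21, 1.14 and 0.91. Promoters were the lowest class in each replicate. The log2 difference between promoters and introns was -0.91, -0.18 and -1.22 (mean -0.77 ± 0.53, SD, n = 3; exact sign-flip p = 0.25, the smallest possible). Between promoters and flanks it was -1.15, -0.49 and -0.40 (-0.68 ± 0.41, SD, n = 3; exact p = 0.25). This difference was -0.212 ± 0.554 for sites within 10 kb and -0.044 ± 0.454 for sites whose nearest coding start was a member's. Among the 5344 strongest summits of the list it was -0.279 ± 0.373, with bowl the only gene left in the promoter class. It did not hold beyond the spread in any of these settings. Without replicate 3 it was -0.339. Introns and flanks did not keep an order, with -0.25, -0.31 and 0.82 (0.09 ± 0.63, SD, n = 3; exact p = 1). With 1 summit per region, introns were higher than flanks by 0.569 ± 0.118 on the log2 scale. Within 10 kb the difference was 0.554 ± 0.305, among the 5344 strongest summits 0.364 ± 0.130, and for sites nearest to a member's start 1.041 ± 0.034. That last set holds no intronic summit of so, as their nearest coding start was that of CG11145. The difference was within the spread with matching within 100 bp (0.029 ± 0.302) and with promoters within 1000 bp (0.070 ± 0.645). Taking the nearest replicate summit gave 0.041 ± 0.285. Over all reproducible summits, promoters and introns differed by -0.06 ± 0.04 on the log2 scale (SD, n = 3). These classes used starts and exons of any gene, while those of the 9 genes used only the member's own, so the 2 are not strictly alike. Leaving out a replicate also kept only summits matched among the strongest of the other replicates, so those values rest on fewer sites. Without replicate 3, only 1 gene, bowl, kept a promoter summit. The promoter to intron difference was then -0.26, and that between introns and flanks -0.083. Without replicate 1 these differences were -1.38 and 0.766. How much of these shifts comes from the sites dropped was not tested.

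**Figure D4:**
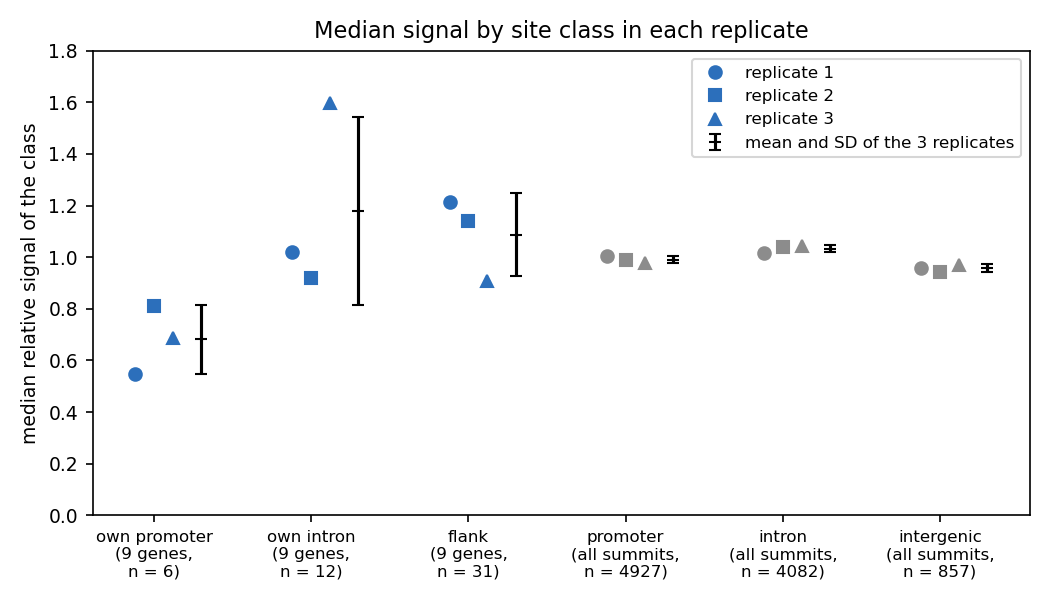
Median relative signal of each class of site in the 3 replicates (symbols), with the mean and SD of the replicates beside them (black), for the 9 genes (blue) and for all reproducible summits (grey). Own promoters, with summits only at eya, Lim1 and bowl, are lowest in each replicate, at 0.55 to 0.81. The classes of all summits lie close to 1. Classes of all summits use starts and exons of any gene, and those of the 9 genes only the member's own.

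The flanking sites at other genes' promoters were stronger than those at the members' own, with medians of 1.09, 1.22 and 1.00 against 0.55, 0.81 and 0.69. Intergenic flanking sites were as low as own promoters, at 0.69, 0.52 and 0.82. Of all 53 summits, 22 (41.5%) lay within 500 bp of the start of any gene, against 48.3% of all reproducible summits. Of the 53, 32 (60.4%) had a match among the strongest 10688 summits of every replicate list, against 76.5% of the whole list.

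The Maf core TGCTGAC lay within 100 bp of 4 of the 53 summits (7.5%), near the 6.84% of all reproducible summits that had it. All 4 were in the eya window, which held 11 summits, and none of the 42 summits around the other 8 genes had it. The matches are shown with 20 bases on either side, from the plus strand, with the core in capitals, to show where it lies in the only window that held it. They lie at chr2L:6524476-6524522 in an intron of CG31637, chr2L:6538529-6538575 in the second intronic region of eya, chr2L:6551294-6551340 near the start of a non-coding RNA gene, and chr2L:6554666-6554712 between genes.
in CG31637: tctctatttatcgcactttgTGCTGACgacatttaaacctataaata
eya intron: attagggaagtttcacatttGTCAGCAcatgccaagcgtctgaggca
near a non-coding RNA gene: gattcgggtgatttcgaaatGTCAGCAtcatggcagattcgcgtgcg
between genes: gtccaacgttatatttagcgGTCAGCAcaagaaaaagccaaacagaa
GTCAGCA is the same core read on the other strand. The eya intron match lay 15 bp from the summit with a relative signal of 2.05. The others lay 43, 42 and 31 bp from summits with 0.69, 1.18 and 0.58, in the order shown. The clustering in 1 window was noticed after the values were seen and has no test.

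The palindromic Maf element of 13 bases, allowing at most 2 mismatches, was found at 1 of the 53 summits, against 1.82% of all reproducible summits. It lay in the strongest intronic site of bab1, at chr3L:1083991-1084043, 3 bp from the summit, with 1 mismatch (A10G, counted from 1 at the 5' end of the element). The element is in capitals.
bab1 intron: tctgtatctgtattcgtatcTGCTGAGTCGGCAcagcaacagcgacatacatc
That site was weaker than the typical one in all 3 replicates (0.71, 0.81 and 0.77). The AP-1 site, which can overlap the Maf element, was at none of the 53 summits and at 2.70% of all. The GATA site was at 5 of 53 (9.4%, against 10.3%), among them the strong bowl intron and its first promoter summit. The GAGA repeat was at 3 of 53 (5.7%, against 7.01%).

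Genes listed as relatives or partners of the 9, or for related roles, had a summit at an own promoter in 9 of 30 cases (30.0%, near the 31.9% of all coding genes). Of the eye-gene network that includes eya and so, 1 of 5 was bound, Six4, a homeodomain gene related to so (1.99, 1.97 and 2.15), while ey, toy, dac and Optix were not. Of the odd-skipped relatives and partners of bowl, sob had a weak site (0.38, 0.73 and 0.55), and odd, drm and lin had none. None of the LIM homeodomain genes ap, tup, Lim3 and Awh or of their cofactor gene Chi had one. None of the temporal factor genes hb, Kr, nub, pdm2 and grh, which are known with cas from neural stem cells, had one. CtBP, which encodes a corepressor known to bind Zfh1, had the strongest promoter site of these 30 genes, with 6.34, 6.77 and 8.25 (7.12 ± 1.00, SD, n = 3), and zfh2 had none.

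Regulators of gonad soma and sexual identity were bound at 6 of 9 promoters, against 31.9% of all coding genes, and this is 1 of 6 lists that together were near that share. The strongest were lola, a BTB zinc finger gene (3.00, 3.29 and 3.99), and tj itself (1.44, 2.68 and 3.00), and Sox100B, abd-A and Abd-B had none. Of the other 4, ken had 1.54, 2.41 and 2.67, while the strongest promoter summits of dsx (0.46, 0.74 and 0.19), Stat92E (0.59, 0.48 and 0.78) and ftz-f1 (0.69, 0.86 and 0.55) were under the typical site in all 3 replicates. These values are descriptions, and the lists were not tested against other genes.

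Other genes carried sites in number and strength like those of the members. By distance over 3 standardised measures, the summits in the window, promoter summits and strongest own site over the 3 replicates, the closest of 4882 bound coding genes to eya was rau, with 11 summits, 2 at promoters, and 5.70 for the strongest. The closest to bowl was scny, with 8, 3 and 5.44. Those to so, zfh1, bab1, Lim1 and chinmo were sn, alpha-Man-Ia, Dh44-R2, Cdk7 and zormin. The genes cas and bab2 had no own site to compare.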

How the data were processed

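The authors deposited peak lists on dm6 and dm3, and the dm6 lists of the 3 replicates and the reproducible list were used. Per the file descriptions deposited with them, every replicate list was made from the alignments of 1 replicate and a control and keeps background peaks, to be compared by irreproducible discovery rate (IDR). The optimal IDR list, called reproducible here, came from the replicate lists and the pooled ones. No version of an aligner or peak caller and no IDR threshold is given in the sources used. The deposited signal (column 7) is an enrichment from the peak caller, and its unit is not stated. Each replicate list held 30000 peaks. No untagged control immunoprecipitation was analysed here.

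For each IDR summit, the strongest replicate summit within 200 bp was divided by that replicate's median over the 10265 IDR summits found in all 3 lists (medians 113.6, 242.1 and 160.6 in replicates 1, 2 and 3). Genes and starts came from Ensembl release 115, with transposable elements left out, and sequence from the NCBI Release 6 genome. All deposited dm6 coordinates fell within the lengths of its arms. A summit was classed as own promoter within 500 bp of a start of the member, then as exon or intron of it, and otherwise as flank. Overlapping peaks were counted as 1 region. Class medians were compared within replicates, with exact sign-flip permutation over the 3 replicates. These p-values concern only these replicates. The sign-flip p is 0.25, its smallest value, whenever all 3 differences share a sign, whatever their spread. Motifs were searched within 100 bp of the summit on both strands.

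The members and lists were chosen with earlier results of these data known. All members are named. For the partner lists, the 2 genes with the strongest promoter summit and those with none are named, and the 4 other bound genes of the last list were added after their values were seen. Functions were tested on simulated data. Calculations used Python 3.11.15, NumPy 2.4.6 and pandas 2.3.3, and figures Matplotlib 3.10.9.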

Additional observations from a re-analysis of the deposited data

How the results depend on the processing

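Of the 53 summits around the 9 genes, 23 were among the 5344 strongest of the list, 32 had a match among the strongest of all 3 replicates, 34 lay within 10 kb, 22 had the nearest coding start at a member, and 35 to 38 had a match among the strongest of the other replicates when 1 was left out. The fewer peaks or shorter windows of these settings remove summits by construction. Own promoters were bound at 1 gene when only those 23 summits were kept, at 1 among summits matched in all 3 replicates, and at 1 to 2 genes without a replicate. The log2 difference between own promoters and introns stayed below 0 in every setting run, from -1.376 to -0.26 without a replicate. Where only 1 gene kept promoter summits, these were sites of bowl alone, set against introns of several genes. That between own promoters and flanks also stayed below 0, from -0.68 to -0.34 without a replicate. It shrank to -0.279 for those 23 summits, -0.212 within 10 kb and -0.044 for sites nearest to a member's start. That between introns and flanks ran from -0.083 to 0.766 without a replicate and was 1.041 for sites nearest to a member's start. It was 0.029 with matching within 100 bp and 0.070 with promoters within 1000 bp. The cause of these shifts was not tested. Taking the nearest replicate summit in place of the strongest, a setting added after the data were seen, changed no direction. The Maf core was at 2 of those 23 summits and at 3 to 4 without a replicate, and its first 6 bases, TGCTGA, were at 10 of 53, against 19.9% of all summits. Class differences were taken within each replicate throughout, and with 1 group there was no comparison between groups to block by replicate. Read depth is unknown, which limits what an absent summit shows.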
